A study of Mus musculus with 6 samples.

Results

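The genes by which fat-storing and fat-burning cells take up fatty acids and glycerol were followed in the adrenal glands of adult female C57Bl/6J mice. The set held 10 genes, Lpl, Gpihbp1, Cd36, Fabp3, Fabp4, Fabp5, Slc27a1, Aqp7, Acsl1 and Gpd1, and its members were every probe set annotated with exactly 1 gene symbol from that list. There were 11 such probe sets of 9 genes, among 16769 probe sets with 1 symbol (15384 genes), and Acsl1 was not analysed here. The CGP group came from mothers given CGP 39551, an antagonist of the NMDA type of glutamate receptor, by mouth at 5 mg/kg body weight during pregnancy and up to weaning. For the control group the labels name no agent. Adrenals of both groups were frozen when the offspring were 21 weeks old, RNA of 18 mice per group was pooled, and 3 arrays were run for each group. The labels do not say whether the 3 arrays carried the same pool or separate pools, so p-values measure only the spread between arrays, which may be technical. The offspring were exposed only through their mothers, and the pools allow no estimate of the spread between mice.

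Triglyceride in circulating lipoproteins is split at the capillary wall by lipoprotein lipase (Lpl), which Gpihbp1 carries across endothelial cells and anchors there. The released fatty acids enter cells with the help of Cd36 and Slc27a1 (FATP1), are carried inside the cell by the fatty acid binding proteins Fabp3, Fabp4 and Fabp5, and are activated to acyl-CoA by Acsl1. Glycerol crosses the membrane of adipocytes through the channel Aqp7, and Gpd1 links glycolysis to the glycerol 3-phosphate backbone of new triglyceride. The adrenal gland lies in fat that includes brown fat, its cortex stores cholesterol esters in lipid droplets, and several of these genes are also used by endothelial cells and macrophages.

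Of the 11 probe sets, 8 were higher and 0 lower in the CGP group, and 3 did not pass (limma, adjusted p under 0.05 over all 16034 probe sets tested), where 1.94% of all tested probe sets were called higher and 1.59% lower. By the platform annotation, the 8 belonged to Lpl, Cd36, Slc27a1, Fabp3 (both probe sets), Fabp4, Aqp7 and Gpd1. The 3 belonged to Gpihbp1 and Fabp5 (both probe sets). Because the members were chosen with earlier results of these data known, this count is a description. The increases were largest for Aqp7 (2.02-fold) and Fabp3 (1.86-fold and 2.01-fold), followed by Lpl at 1.59-fold, and the other 4 genes rose by 1.28-fold to 1.32-fold. All 11 log2 differences were positive, between 0.06 and 1.02 with a median of 0.39, beside a median of -0.01 over all probe sets tested. The CGP arrays lay above the control arrays without overlap at 8 of these probe sets, a pattern found at 13.7% of all that were tested. In RNA of whole glands, more cells of a type and more RNA per cell cannot be told apart. With a minimum change of 1.2-fold in the test, 4 of the 8 were called, those of Lpl, Fabp3 and Aqp7, where 25 of all 16034 probe sets (0.156%) were called higher.

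Promoter windows from RefSeq (build GRCm38.p6, from 250 bases before to 50 bases after a transcript start) were given for 5 of the 10 genes. Those of Aqp7 and Fabp3 are shown because these genes had the largest increases, and that of Cd36 as the membrane receptor among the genes that rose. The hexamer AGGTCA, which nuclear receptors of the PPAR and RXR type are known to bind in pairs, was searched on both strands, and capitals mark it (TGACCT is the same motif on the other strand). Each window runs along its gene. The Aqp7 window is chr4:41047913-41048212 on the minus strand, the Cd36 window chr5:17835847-17836146 on the minus strand, and the Fabp3 window chr4:130308488-130308787 on the plus strand.
Aqp7: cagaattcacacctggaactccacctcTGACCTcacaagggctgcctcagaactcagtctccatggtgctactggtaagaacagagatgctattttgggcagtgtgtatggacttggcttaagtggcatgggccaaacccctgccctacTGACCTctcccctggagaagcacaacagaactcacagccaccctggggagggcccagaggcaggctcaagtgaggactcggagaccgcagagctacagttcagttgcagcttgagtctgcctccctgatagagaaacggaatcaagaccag
Cd36: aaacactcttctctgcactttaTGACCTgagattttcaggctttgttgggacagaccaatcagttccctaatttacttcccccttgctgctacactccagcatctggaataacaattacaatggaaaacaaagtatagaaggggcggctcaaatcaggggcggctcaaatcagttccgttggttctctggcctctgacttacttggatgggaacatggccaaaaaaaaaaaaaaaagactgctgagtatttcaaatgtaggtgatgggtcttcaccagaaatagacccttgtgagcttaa
Fabp3: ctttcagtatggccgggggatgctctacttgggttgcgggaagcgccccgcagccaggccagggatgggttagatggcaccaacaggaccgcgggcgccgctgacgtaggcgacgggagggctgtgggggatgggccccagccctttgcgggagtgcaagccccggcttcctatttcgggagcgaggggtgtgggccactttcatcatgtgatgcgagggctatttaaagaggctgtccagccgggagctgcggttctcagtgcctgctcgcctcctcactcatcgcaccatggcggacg
The Aqp7 window held 2 matches, which began 223 and 101 bases before the start, and the Cd36 window held 1 at 228 bases before it. A further Aqp7 window, chr4:41048087-41048386, overlaps the one shown and holds 1 of the same matches. The windows of Fabp3, Slc27a1 (3 of them) and Acsl1 held 0. Of all 32851 promoter windows of the same length, 5340 (16.3%) held the hexamer. The direct repeat AGGTCANAGGTCA, with 1 base between the repeats, was in none of the windows of these genes and in 13 of all windows (0.0396%). A match describes the letters only, and nothing about binding was measured.

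**Figure D1:**
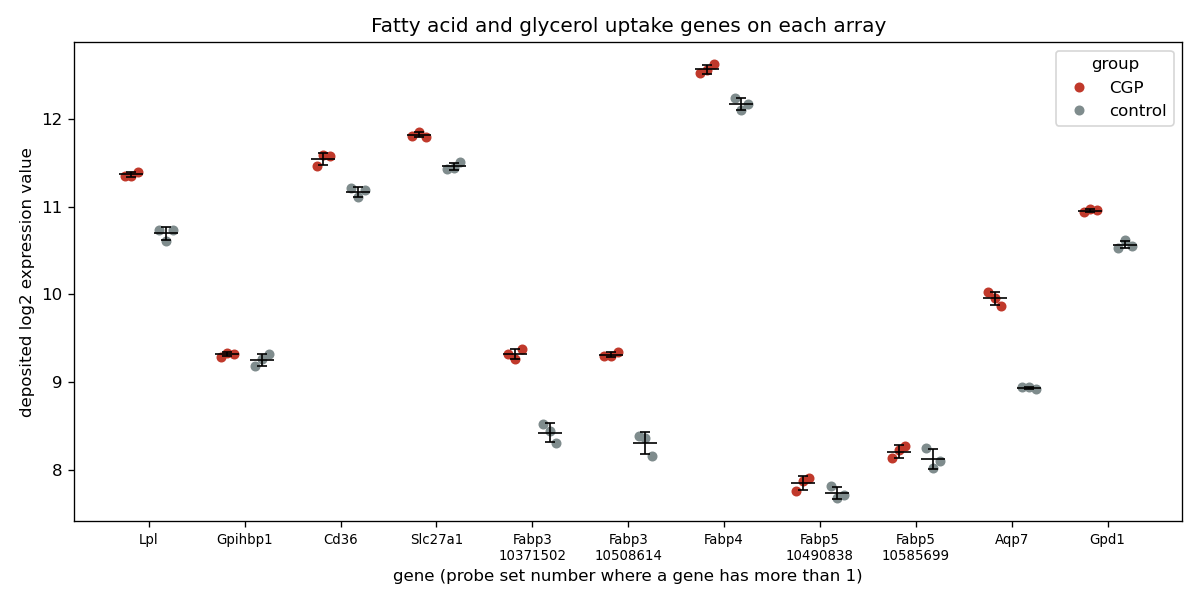
Deposited log2 expression value (vertical axis) of the 11 probe sets of fatty acid and glycerol uptake genes (horizontal axis) on the 3 CGP arrays (red) and 3 control arrays (grey), drawn left to right as arrays 1, 2 and 3, where black marks give each group's mean and its SD. CGP and control arrays are apart at Lpl, Cd36, Slc27a1, Fabp3, Fabp4, Aqp7 and Gpd1 and overlap at Gpihbp1 and Fabp5.

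Of the genes whose products act at the capillary wall, the RNA of the lipase rose and that of its anchor did not pass the test. Lpl had log2 values of 11.35, 11.35 and 11.40 on the CGP arrays, against 10.74, 10.61 and 10.73 on the control arrays. The lowest CGP array stood 0.61 above the highest control array. The log2 difference was 0.67 (SE 0.05, 95% interval 0.55 to 0.79, adjusted p = 0.000308), and Lpl was the fifteenth of all tested probe sets by the size of its increase. Gpihbp1 had 9.29, 9.34 and 9.32 on the CGP arrays, against 9.18, 9.26 and 9.31 on the control arrays. These ranges overlapped, with control array 3 above CGP array 1. The difference of 0.06 had an interval of -0.05 to 0.18 (adjusted p = 0.519), which lies below that of Lpl throughout.

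The RNAs of both membrane proteins for fatty acid entry rose by similar amounts. Cd36, a scavenger receptor that binds long-chain fatty acids, had 11.47, 11.59 and 11.58 on the CGP arrays, against 11.21, 11.11 and 11.18 on the control arrays. The groups did not overlap, although CGP array 1 was lower than the other CGP arrays. The difference was 0.38 (SE 0.05, 95% interval 0.25 to 0.51, 1.30-fold, adjusted p = 0.00973), and it no longer passed without CGP array 2 (0.36, adjusted p = 0.0617) or without CGP array 3 (0.36, adjusted p = 0.0611). Slc27a1, a fatty acid transport protein with acyl-CoA synthetase activity, had 11.81, 11.85 and 11.79 on the CGP arrays, against 11.43, 11.44 and 11.51 on the control arrays. The arrays of each group were close together, and the gap between the groups was 0.29. Slc27a1 differed by 0.36 (SE 0.05, 95% interval 0.25 to 0.46, 1.28-fold, adjusted p = 0.00535).

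The RNAs of the 3 fatty acid binding proteins moved by different amounts. Fabp3, the form known from heart, muscle and brown fat, had 2 probe sets. Its probe set 10371502 read 9.32, 9.27 and 9.37 on the CGP arrays, against 8.53, 8.44 and 8.31 on the control arrays, a difference of 0.90 (SE 0.07, 1.86-fold, adjusted p = 0.000249). Its probe set 10508614 read 9.30, 9.29 and 9.34 on the CGP arrays, against 8.38, 8.37 and 8.16 on the control arrays, a difference of 1.01 (SE 0.07, 2.01-fold, adjusted p = 0.000161). At both, the CGP arrays were close together and the control arrays spread further, with control array 3 the lowest. The probe sets disagreed slightly in size, and their 95% intervals (0.74 to 1.05 and 0.85 to 1.17) overlapped. The RefSeq table also lists a pseudogene, Fabp3-ps1, and signal from it cannot be told apart here. Fabp3 is on chromosome 4, but the number 10371502 falls between those of Fabp7 (10363224) and Lyz2 (10372648), genes of chromosome 10. This probe set may therefore lie at another locus, so its 1.86-fold difference may not be that of Fabp3. Its place was not tested.

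Fabp4, the abundant form of adipocytes that macrophages and capillary endothelium also make, had 12.52, 12.55 and 12.62 on the CGP arrays, against 12.24, 12.10 and 12.16 on the control arrays. The groups were apart by 0.28. The difference was 0.40 (SE 0.05, 95% interval 0.27 to 0.52, 1.32-fold, adjusted p = 0.00731). Fabp5, the epidermal form, which adipocytes and macrophages also express, had 7.76, 7.88 and 7.91 on the CGP arrays at probe set 10490838, against 7.82, 7.68 and 7.72 on the control arrays. At probe set 10585699 it had 8.13, 8.22 and 8.27 on the CGP arrays, against 8.25, 8.03 and 8.10 on the control arrays. At both, control array 1 lay above CGP array 1, so the groups overlapped. The differences were 0.11 (95% interval -0.03 to 0.25, adjusted p = 0.351) and 0.08 (-0.07 to 0.24, adjusted p = 0.540). RefSeq lists a further gene of the same name root, Fabp5l2, and signal from it cannot be told apart here. Fabp5 is on chromosome 3, but the number 10585699 falls between those of Apoa5 (10585015) and Cyp11a1 (10585794), genes of chromosome 9. Whether this probe set lies at another locus was not tested.

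Within each array, the value of Fabp3 minus that of Fabp4 was higher on the CGP arrays by 0.50 (probe set 10371502) and 0.61 (probe set 10508614). Fabp4 minus Fabp5 was higher on the CGP arrays by 0.29 and 0.31 at the 2 probe sets of Fabp5. In each of these cases the CGP arrays lay above the control arrays without overlap. The changes thus ran in the order Fabp3, Fabp4, Fabp5, with Fabp3 the largest. These differences between genes were not tested.

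Of the genes for glycerol, the channel rose more than the dehydrogenase. Aqp7, the glycerol channel of the adipocyte membrane, had 10.03, 9.96 and 9.87 on the CGP arrays, against 8.94, 8.94 and 8.92 on the control arrays. The control arrays differed by hardly anything (SD 0.01), and the lowest CGP array stood 0.93 above the highest of them. The difference was 1.02 (SE 0.05, 95% interval 0.90 to 1.14, 2.02-fold, adjusted p = 7.08e-05), the third largest increase among the 16034 probe sets. Gpd1, the cytosolic glycerol 3-phosphate dehydrogenase, had 10.93, 10.97 and 10.96 on the CGP arrays, against 10.53, 10.61 and 10.55 on the control arrays. Again the groups were apart, by 0.32. Gpd1 differed by 0.39 (SE 0.05, 95% interval 0.28 to 0.49, 1.31-fold, adjusted p = 0.00317).

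**Figure D2:**
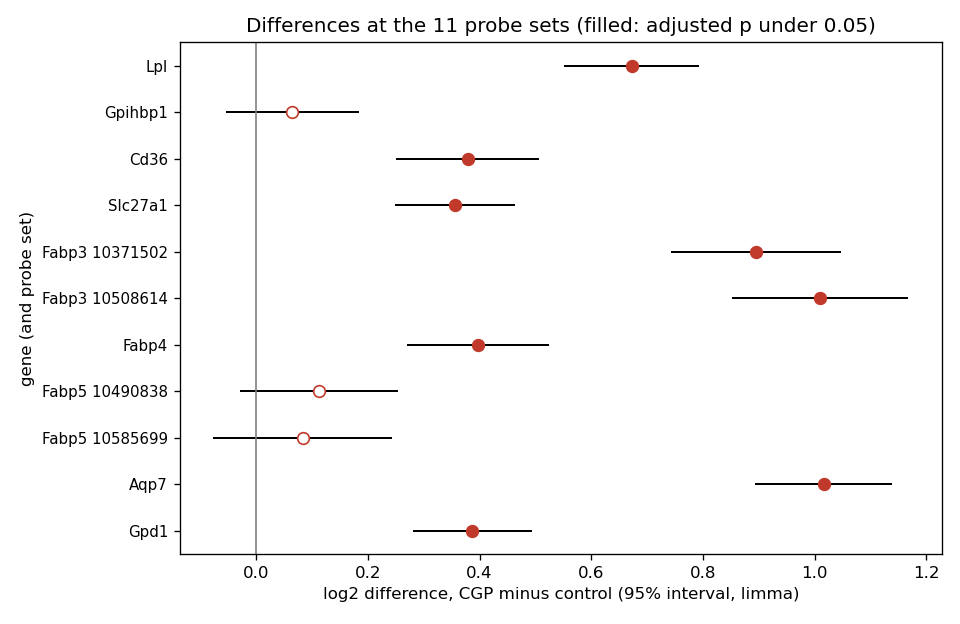
Log2 difference, CGP minus control (horizontal axis), of the 11 probe sets of uptake genes (vertical axis), with 95% intervals from limma and filled points where the adjusted p was under 0.05. Aqp7 (1.02) and Fabp3 (0.90 and 1.01) lie farthest right, and the intervals of Gpihbp1 and Fabp5 include 0.

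All 11 probe sets passed the filter on low values and lay above the array background on all 6 arrays. Background was set at the 75th percentile of the signal of 128 sensory receptor probe sets (log2 6.41 to 6.55 on the CGP arrays and 6.49 to 6.65 on the control arrays). The smallest margin over it was 1.03, at Fabp5 probe set 10490838. Centred on its own mean, the average member probe set stood at 0.22, 0.25 and 0.27 on the CGP arrays, against -0.21, -0.27 and -0.26 on the control arrays. Control array 1 was the highest control at 8 of the 11 probe sets, and over all tested probe sets its difference from CGP array 2 had a smaller SD (0.160) than its difference from control array 2 (0.177). Across the 6 arrays, the genes outside the set whose profile was most like this average, among 947 probe sets with a range of at least 0.5, were Slc4a4, a bicarbonate cotransporter (Pearson r 0.999, log2 difference 0.62), Ucp1, the uncoupling protein of brown fat (0.999, 1.22), Car5b, a mitochondrial carbonic anhydrase (0.997, 0.67), Slc2a4, the insulin-responsive glucose transporter (0.996, 0.65), and Car4, a membrane carbonic anhydrase (0.995, 0.71). These r values contain the difference between the groups and share the same 6 arrays, so they describe likeness only.

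The other genes of the same steps did not follow the set as a whole. Of 39 listed, 26 could be tested, of which 3 were higher and 6 lower in the CGP group, and 17 did not pass, with a median difference of -0.03. All 6 that fell are genes known from liver. In each step but that of the acyl-CoA synthetases, where no member was measured, members of the set that rose stood beside relatives that fell or did not pass the test. The 3 relatives that rose were Cav1 in membrane transport, Gpd2 in glycerol handling and Acsl4 among the acyl-CoA synthetases.

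In the lipase system, 0 of 8 genes were higher and 2 were lower. Apoa5, a plasma apolipoprotein that aids Lpl, had a mean of 8.15 ± 0.05 on the CGP arrays and 8.85 ± 0.02 on the control arrays (SD, n = 3 each), and fell by 0.69 (adjusted p = 0.00015). Apoc3, a plasma apolipoprotein that restrains triglyceride clearance, had 11.12 ± 0.03 on the CGP arrays and 11.82 ± 0.03 on the control arrays, and fell by 0.70 (adjusted p = 0.000132). Both are secreted by the liver. The Lpl inhibitor Angptl4 differed by 0.17 with no overlap between the groups, but did not pass (adjusted p = 0.130). Sel1l (0.05) and Lmf1 (-0.04), which help Lpl to fold and leave the endoplasmic reticulum, did not pass either.

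In membrane transport, 1 of 7 genes was higher and 2 were lower. Cav1, the caveolin that coats the caveolae of adipocytes and endothelium, had 10.15 ± 0.08 on the CGP arrays and 9.52 ± 0.02 on the control arrays, and rose by 0.62 (SE 0.05, adjusted p = 0.000525). Cavin1, its partner in caveolae, differed by 0.04 and did not pass the test (adjusted p = 0.629). The genes of the fatty acid transport proteins went separate ways. Slc27a1 rose, as given above, whereas Slc27a2, known from liver and kidney, had 9.26 ± 0.05 on the CGP arrays and 9.89 ± 0.08 on the control arrays and fell by 0.63 (adjusted p = 0.000747). Slc27a5, the bile acid-CoA ligase of liver, had 7.41 ± 0.05 on the CGP arrays and 8.28 ± 0.05 on the control arrays and fell by 0.88 (adjusted p = 0.000106). Slc27a3 (-0.08) and Got2 (-0.03), an aminotransferase also described as a fatty acid binding protein of the plasma membrane, did not pass.

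Among other binding proteins, Fabp1, the liver form, had 8.53 ± 0.05 on the CGP arrays and 9.10 ± 0.19 on the control arrays and fell by 0.56 (SE 0.09, adjusted p = 0.0168). This call was lost without any 1 of CGP arrays 1, 2 and 3 or control array 3 (adjusted p up to 0.0756). Dbi, the acyl-CoA binding protein (0.02), and Fabp7, the brain form (-0.12), did not pass. Of 4 acyl-CoA synthetases, Acsl4, which prefers arachidonic acid, was higher by 0.25 (11.65 ± 0.08 on the CGP arrays and 11.40 ± 0.01 on the control arrays) at an adjusted p of 0.04998. Without any 1 of the 6 arrays that call was lost (adjusted p up to 0.178). Acsl5 (0.05), Acsl6 (-0.10) and Acsbg1 (-0.02) did not pass.

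For glycerol, the 2 aquaglyceroporins that changed moved in opposite directions. Aqp7 rose, whereas Aqp9, the glycerol channel of hepatocytes, had 7.04 ± 0.10 on the CGP arrays and 8.05 ± 0.05 on the control arrays and fell by 1.01 (SE 0.06, adjusted p = 0.000112). Gpd2, the mitochondrial partner of Gpd1 in the glycerol phosphate shuttle and abundant in brown fat, had 8.56 ± 0.05 on the CGP arrays and 8.23 ± 0.03 on the control arrays and rose by 0.33 (adjusted p = 0.00998). That call was lost without CGP array 3 (adjusted p = 0.0605) or control array 3 (adjusted p = 0.0533). Aqp3 (-0.12) and Gpd1l (-0.09) did not pass the test.

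**Figure D3:**
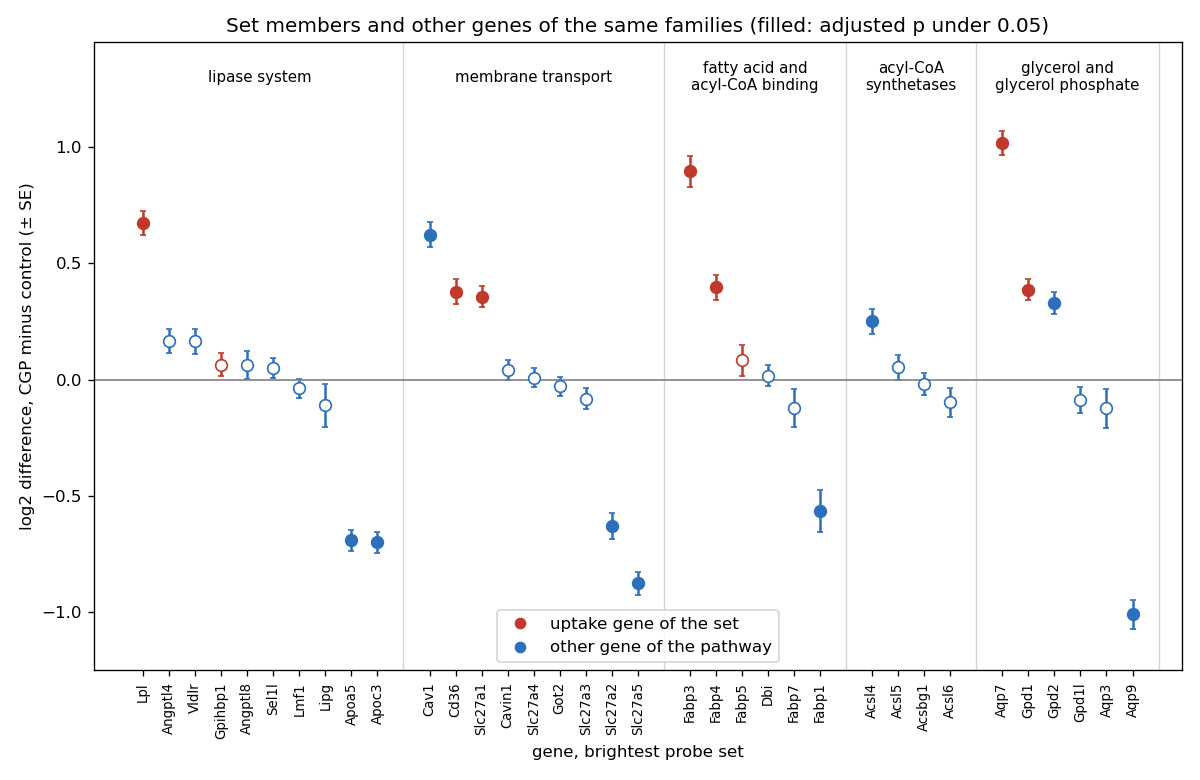
Log2 difference, CGP minus control, with its SE (vertical axis), of the uptake genes of the set (red) and the other tested genes of the same 5 families (blue), with the probe set of highest mean for each gene (horizontal axis). Filled points had an adjusted p under 0.05. Among them, Lpl, Cd36, Slc27a1, Fabp3, Fabp4, Aqp7 and Gpd1 of the set and Cav1, Acsl4 and Gpd2 of the other genes lie above 0. Apoa5, Apoc3, Slc27a2, Slc27a5, Fabp1 and Aqp9 lie below it.

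Markers of fat moved with the set and those of liver moved the other way. Of 9 adipocyte markers tested (of 12 listed), 7 were higher and 0 lower in the CGP group, and 2 did not pass, with a median difference of 0.43. They included Retn, the hormone resistin (0.31), Cidec, a lipid droplet protein (0.43), and Pnpla2, the first lipase of stored triglyceride (0.35). Their summed linear signal was 30580 to 31587 on the CGP arrays, against 24031 to 24517 on the control arrays. Of 10 brown fat markers, 7 were higher, 0 lower and 3 not past the test, with a median of 0.50 and a summed signal of 11020 to 11148 on the CGP arrays, against 6311 to 6586 on the control arrays. Cox8b (0.54) and Cox7a1 (0.46), subunit forms of cytochrome oxidase used in brown fat and muscle, were among them. Dio2, the deiodinase of brown fat, did not pass (0.32, limma adjusted p = 0.0737). It lay under background on all 3 control arrays and little above it on the 3 CGP arrays (log2 6.54 to 6.84). The other markers of both lists lay above background on all 6 arrays. All 12 hepatocyte markers tested (of 14) were lower, with a median of -0.91 and a summed signal of 17653 to 18104 on the CGP arrays, against 28336 to 28863 on the control arrays, among them Alb (-0.42), Ahsg (-0.65) and Apoa2 (-1.03). These marker lists were also chosen with earlier results of these data known, so their counts are descriptions. The part of fat or liver cells in the changes of the uptake genes was not tested.

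The lists of other cells that use these genes held no call. The 12 endothelial markers had a median difference of 0.05 (0 called and 1 at an unadjusted p under 0.05 in limma), with mean levels of 9.79 to 9.84 on the CGP arrays and 9.77 to 9.78 on the control arrays. The CGP arrays lay above all control arrays at 6 of them and below at 2, where 13.7% of all 16034 tested probe sets lay above and 2019 lay below. Such shifts were small, the largest being Tek (0.24). Over all 16034 tested probe sets, 3095 had an unadjusted p under 0.05 in limma. Of 11 macrophage markers, 0 were called (2 at an unadjusted p under 0.05), with a median of -0.05. Among these, Cd163 lay under background on all 6 arrays and Mrc1 on 1. Skeletal muscle, which uses Fabp3 and Cd36, had 7 markers tested, 0 called (2 unadjusted), and a median of -0.08. Their mean levels were low, 7.11 to 7.24 on the CGP arrays and 7.12 to 7.34 on the control arrays. Background was 6.41 to 6.65 on the 6 arrays, so these markers can show little. The labelled tissue was present, since markers of adrenal cortex averaged log2 13.03 to 13.08 on the CGP arrays and 12.94 to 12.99 on the control arrays. Markers of adrenal medulla averaged 11.73 to 11.75 on the CGP arrays and 11.75 to 11.77 on the control arrays. Among 11 cortex markers, 1 was called, Cyp11b2, aldosterone synthase (0.50), and among 7 of medulla 0 were called (1 unadjusted).

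Set against the mean of the 9 tested adipocyte markers on the same array, the uptake genes shifted by different amounts. Cd36, Fabp4 and Gpd1 kept their distance to the markers, with shifts of -0.03, -0.01 and -0.02 between CGP and control arrays and overlap of the groups. Slc27a1 shifted by -0.05, with the CGP arrays just below the control arrays. Aqp7 shifted by 0.61, Fabp3 by 0.49 and 0.60 and Lpl by 0.27, each with the CGP arrays above all control arrays. These 3 genes thus changed by more than the mean of the adipocyte markers, whose own differences ran from 0.22 to 0.65. The increase of Lpl (0.67) was close to that of the marker that rose most, Slc2a4 (0.65). Gpihbp1 (-0.34) and Fabp5 (-0.29 and -0.32) lay below, with no overlap. Against the mean of the 10 brown fat markers, Aqp7 (0.49), Fabp3 (0.37 and 0.48) and Lpl (0.14) again stood higher on the CGP arrays, and the other 6 genes stood lower by 0.13 to 0.46. The brown fat markers themselves ranged widely, from 0.01 (Prdm16) to 1.22 (Ucp1), and Ucp1 rose more than any uptake gene. These shifts are descriptions of the same 6 arrays, with no test.

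**Figure D4:**
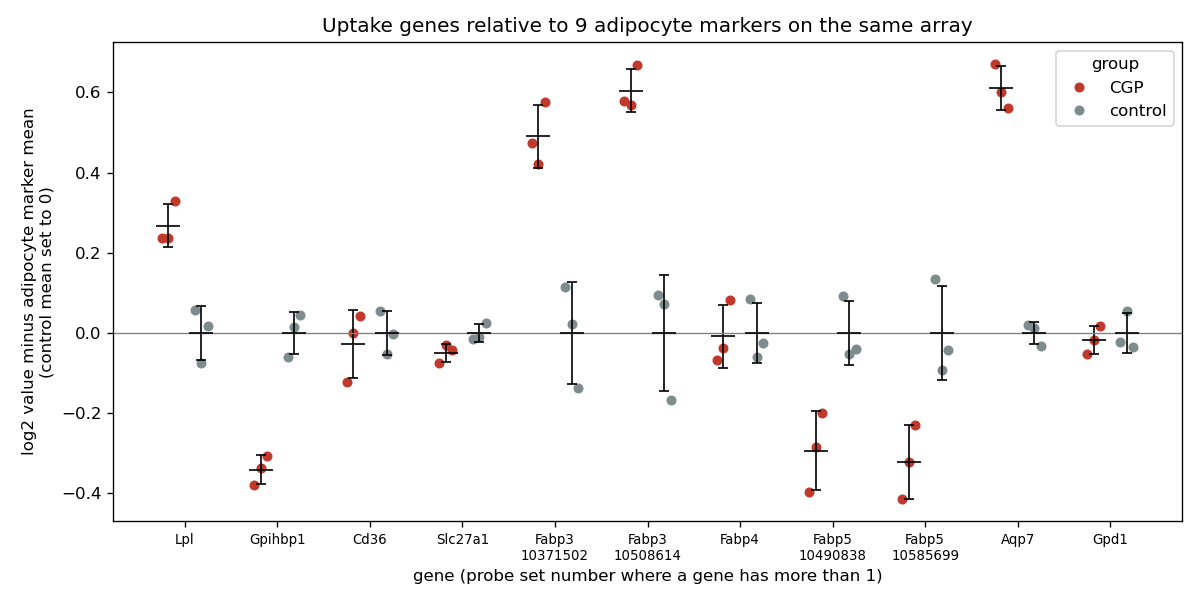
Log2 value of each uptake gene probe set minus the mean of 9 adipocyte markers on the same array, with the control mean set to 0 (vertical axis), for the 3 CGP arrays (red) and 3 control arrays (grey), where black marks give each group's mean and its SD. Aqp7, Fabp3 and Lpl lie above 0 on the CGP arrays, Cd36, Fabp4 and Gpd1 lie among the controls, and Gpihbp1 and Fabp5 lie below them.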

How the data were processed

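Total adrenal RNA was hybridised to Affymetrix whole-transcript arrays, 3 per group. The authors deposited log2 expression values of 25150 probe sets, and their processing notes name RMA and Partek without versions. RMA compresses differences at low signal and equalises the arrays. The genome build behind the table is not given in the sources used here. The platform annotation gave 1 gene symbol for 16769 probe sets, several for 1031 and none for 7350. Probe sets with 1 symbol that reached log2 6 on 3 or more of the 6 arrays were tested (16034, of 14727 genes) with limma 3.58.1 in R 4.3.3 (lmFit, eBayes, two-sided, no covariates), with Benjamini-Hochberg adjustment over all of them. Arrays have no read depth, and their number limits the precision. The code was tested on simulated data. Gene lists used the probe set of highest mean per gene. All member probe sets are named, together with every called list gene and up to 3 others of highest mean. In each marker list up to 3 genes of highest mean are named. Dio2, Cyp11b2, Tek, Cd163, Mrc1, Slc2a4 and Prdm16 were named for their values, after these were seen. The members and lists were chosen with earlier results of these data known. Alternatives covered filters, scaling, variance model, array weights, minimum change, array number as a block and each array left out.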

Additional observations from a re-analysis of the deposited data

How the results depend on the processing

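Over 15 alternatives, all 165 differences of the uptake genes stayed positive. Changes of filter, variance model, minimum change or the array number as a block leave the estimate as it was, so no sign could change there. The other alternatives reuse the same arrays. Of the 165, 156 kept their side of the threshold, the exceptions being Gpd1, Fabp4, Cd36 and Slc27a1. The count of 8 called probe sets became 4 with a minimum change of 1.2-fold and 5 with the array number as a replicate block, where Fabp4 (adjusted p = 0.0510), Cd36 (0.0705) and Slc27a1 (0.0567) were lost, and it was 7 without CGP array 2 or 3. Of 386 values of the other pathway genes, 363 kept their side, 21 lost it, 2 gained it, and 0 called values changed sign. The 566 calls over all probe sets (311 higher) became 1261 with an intensity trend and robust prior (746 higher), 1665 with array weights (938 higher), 126 with a minimum change of 1.2-fold (25 higher), and 224 with the block (68 higher). Testing all probe sets, named or not, gave 382 calls (164 higher), and a floor of log2 7 on all arrays gave 744 (481 higher). Leaving out 1 array gave 236 (CGP array 2) to 1099 (control array 1), with 320 without CGP array 1, 237 without CGP array 3, 364 without control array 2 and 269 without control array 3. The cause was not tested. Same-numbered arrays had deviations that correlated at -0.36, -0.17 and -0.12, and differently numbered arrays at -0.16 to 0.28. Deviations centred within 3 arrays balance one another, so these values cannot decide whether the numbers pair the arrays. Precision is limited by the 3 arrays per group, of pooled RNA, and the signal of Fabp5 was nearest to background.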
